A study of Mus musculus with 15 samples.

Results

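The 9 genes described here remove or read methylated cytosine: the dioxygenases Tet1, Tet2 and Tet3, the glycosylases Tdg and Mbd4, and the methyl-CpG binding proteins Mbd1, Mbd2, Mbd3 and Zbtb33 (Kaiso). They were chosen by name from the 46517 genes of 6 mouse kidney RNA count files, and all 9 were found and passed the filter on low counts. RNA came from kidneys at postnatal day 0 (P0) of strain C57BL/6, with 3 control libraries of genotype Dnmt1 f/f and 3 knockout (KO) libraries of genotype Six2Cre Dnmt1 f/f. The floxed alleles of Dnmt1, the maintenance methyltransferase, were thus carried by controls and KO alike, and the controls had no Cre. Reduced representation bisulfite sequencing (RRBS), a bisulfite readout of methylation at CpG-rich fragments cut by a restriction enzyme, covered 3 control and 3 KO samples at P0 and 3 wild-type C57BL/6 adults of 6 weeks. The Six2 promoter drives Cre in nephron progenitors of the cap mesenchyme and so in their nephron descendants, while stroma, ureteric bud and vessels are not targeted. The labels give Six2+ cells as the source, yet their protocol names whole kidneys for the DNA. No label says that replicates came from separate animals, so p-values measure only the spread between these libraries.

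TET enzymes oxidise 5-methylcytosine to hydroxymethyl, formyl and carboxyl forms. TDG excises the formyl and carboxyl forms, and MBD4 excises thymine left when methylcytosine is deaminated. Base excision repair then restores an unmethylated cytosine. MBD1 and MBD2 bind methylated CpG and recruit repressor complexes, MBD3 is a subunit of the NuRD deacetylase complex whose own binding domain prefers methylated DNA little if at all, and Kaiso binds methylated CpG pairs through zinc fingers. After DNA replication DNMT1 copies methylation to the new strand, so these genes act on the same mark that the deletion removes. In GRCm38 the members lie at chr10:62804570-62887469 (Tet1), chr3:133463677-133545136 (Tet2), chr6:83362373-83457208 (Tet3), chr10:82629814-82650799 (Tdg), chr6:115840697-115853400 (Mbd4), chr18:74267605-74282737 (Mbd1), chr18:70568225-70629134 (Mbd2), chr10:80392539-80399531 (Mbd3) and chrX:38189793-38197046 (Zbtb33).

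Gene counts per RNA library ran from 26773937 to 34102567. Levels are given in CPM, the counts scaled to a common library total. Dnmt1 itself was at 180, 156 and 188 CPM in the controls and at 110, 111 and 93.7 CPM in the KO libraries. Every KO library was lower, with a log2 fold change of -0.74 ± 0.12 (SE) and an edgeR adjusted p of 0.00577. Nephron markers moved with genotype: all 7 of 7 tubule markers and all 5 of 5 podocyte markers were lower, and the summed tubule level was 2654 to 4542 CPM in controls and 406 to 480 CPM in KO. Of 7 progenitor markers, 2 were higher and 2 lower, with a summed level of 341 to 467 CPM in controls and 338 to 378 CPM in KO. Of the other lists, 4 of 5 endothelial markers were lower (552 to 797 CPM summed in controls, 367 to 445 in KO), while 2 of 5 ureteric (566 to 1009 and 696 to 1007), 3 of 6 stromal (3082 to 3678 and 2997 to 3533) and 2 of 6 leukocyte markers (79.1 to 101 and 86.8 to 132) were higher. None of 5 tested erythroid markers was called (389 to 1282 and 614 to 908 CPM summed), with 1 at an unadjusted p under 0.05. No marker was at 0 in any library. These lists show a tissue of mixed cell types, and in such samples fewer cells of a type and less RNA per cell cannot be told apart. The part of tissue makeup in the member values was not tested. Control 3 stood apart. Its Pearson correlation of log2 CPM with controls 1 and 2 was 0.968 and 0.966, against 0.99 between those, and it had the highest summed tubule level. Where leaving it out changed the call of a member or a named pathway gene, the value without it is given. Without control 3, 27.4% of 18533 tested genes passed an edgeR adjusted p of 0.05, against 14.6% of 18132 with all libraries.

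None of the 9 members passed an edgeR adjusted p of 0.05, in a comparison where 14.6% of 18132 tested genes did (6.36% higher and 8.23% lower in KO). Tet1 alone was under 0.05 unadjusted, as were 5081 of the 18132 genes. With DESeq2 1 member passed, again Tet1, and with limma voom 2 passed, Tet1 and Mbd4. Of all 18132 genes, 19.4% passed with DESeq2 and 27.8% with voom. The members' log2 fold changes were above 0 for 5 and below 0 for 4, with a median of 0.05, beside a median of -0.00074 over all genes tested. In 2 of 9, Tet1 and Zbtb33, every KO library was above every control, a pattern shown by 16.5% of genes. No member had every KO library below every control, as 17.8% of genes did.

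**Figure D1:**
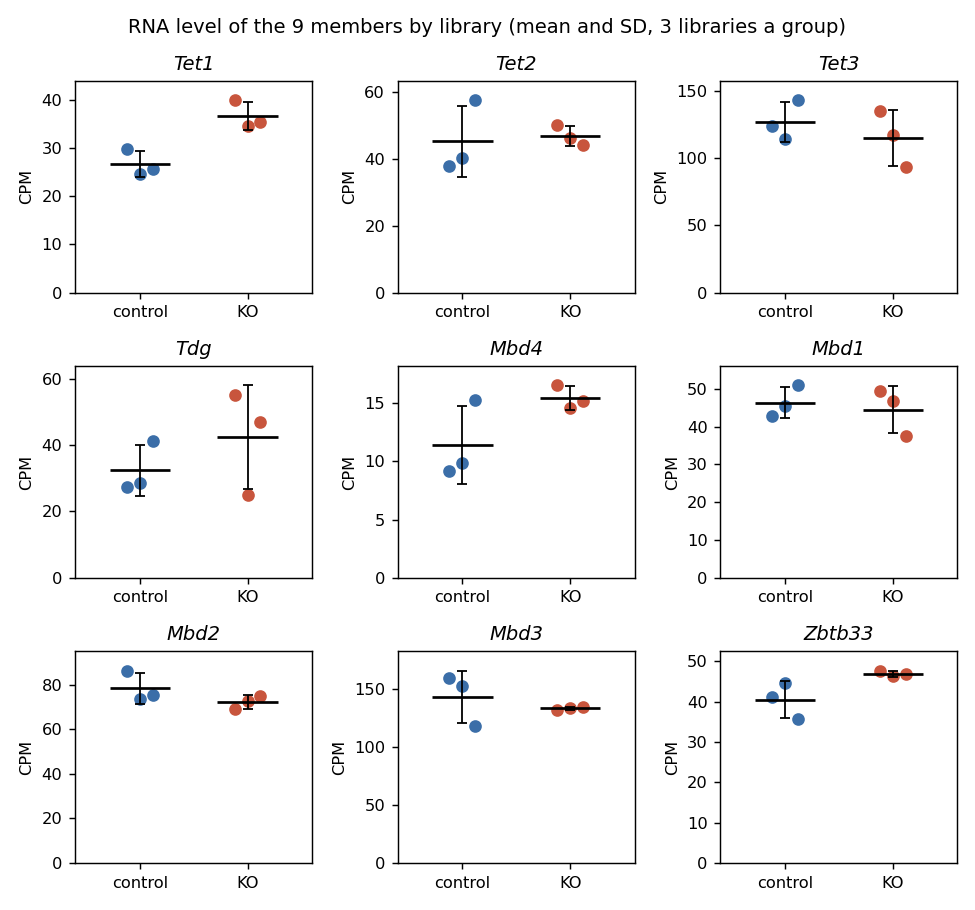
RNA level of each member in CPM (vertical axis from 0) in the 3 control (blue) and 3 KO (red) libraries. Points are libraries, the wide line is the mean and the bar the SD. The groups are separate for Tet1 and Zbtb33 and overlap for the other 7.

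Among the dioxygenases, Tet1 lay nearest to the threshold. Tet1 was at 29.8, 24.7 and 25.6 CPM in the controls and at 39.9, 34.5 and 35.3 CPM in KO (raw counts of 979, 762 and 941 against 1279, 1053 and 928). All 3 KO libraries were above all 3 controls, averaging 36.5 ± 2.89 CPM against 26.7 ± 2.76 CPM (SD, n = 3). In log2 units Tet1 differed by 0.45 ± 0.13 (SE; 95% interval 0.15 to 0.75), a ratio of 1.37, with an edgeR adjusted p of 0.0543. Without control 3 the adjusted p was 0.0381 at a log2 fold change of 0.42, in a setting where 27.4% of 18533 genes passed. Tet1, whose protein carries a CXXC domain that binds CpG-rich DNA, also spans an annotated long noncoding gene, Gm51805, over 21800 bases. That overlap is of whole gene spans, introns included, and overlap of exons was not computed. Strand use in counting is not given in the sources used here, so how far reads of the 2 were separated is not known. The same limit holds where other members overlap a gene: Tet3 (B230319C09Rik, 6568 bases), Mbd3 (Gm30823, 2530), Zbtb33 (Tmem255a, 474) and Tdg (Glt8d2, 369). Overlaps of Mbd2 (67 bases) and Mbd4 (22) were shorter.

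Tet2, the dioxygenase without a CXXC domain of its own, was at 38.0, 40.3 and 57.5 CPM in controls and at 50.2, 46.3 and 44.3 CPM in KO. The KO values lay inside the control range, and control 3 was the highest of the 6. Its log2 fold change was 0.05 (95% interval -0.34 to 0.44, edgeR adjusted p = 0.888). Tet3, the family member that oxidises the paternal genome in the zygote, was at 124, 114 and 143 CPM in controls and at 135, 117 and 93.3 CPM in KO. Its groups overlapped, with KO 3 the lowest library. The log2 fold change of Tet3 was -0.14 (95% interval -0.50 to 0.22, edgeR adjusted p = 0.629). Summed over the 3 dioxygenases, the level was 192, 179 and 226 CPM in controls and 225, 198 and 173 CPM in KO, so the groups overlapped.

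Tdg was the most variable member. It was at 27.4, 28.6 and 41.3 CPM in controls and at 55.2, 24.9 and 46.9 CPM in KO. KO 2 was the lowest of all 6 libraries and KO 1 the highest, so the groups overlapped fully. The log2 fold change of 0.38 had a 95% interval of -0.28 to 1.05 and an edgeR adjusted p of 0.454. It was 0.15 without KO 1 and 0.65 without KO 2, and was not called in either case. A processed copy, Tdg-ps, held 2, 3 and 1 reads in controls and 5, 14 and 13 in KO, and was under the filter. Reads shared between the copy and Tdg may have been left uncounted, so the Tdg level is uncertain to that extent.

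Mbd4 was at 9.14, 9.87 and 15.2 CPM in controls and at 16.5, 14.6 and 15.2 CPM in KO. Controls 1 and 2 were below every KO library, and control 3 was level with them. The log2 fold change of Mbd4 was 0.43 ± 0.22 (SE; 95% interval -0.07 to 0.94) with an edgeR adjusted p of 0.246. Without control 3 it was 0.70 with an adjusted p of 0.00813, so the call turned on that library. In that setting 27.4% of 18533 genes passed.

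Among the binders, Mbd1 was at 42.7, 45.5 and 50.9 CPM in controls and at 49.4, 46.8 and 37.5 CPM in KO. Its log2 fold change of -0.06 (edgeR adjusted p = 0.840) changed sign under upper quartile scaling and with voom (0.0246 and 0.0248). Mbd2, which joins NuRD in place of Mbd3, was at 86.3, 73.5 and 75.3 CPM in controls and at 68.9, 72.6 and 74.98 CPM in KO. The groups overlapped narrowly, with a log2 fold change of -0.12 (95% interval -0.37 to 0.13, edgeR adjusted p = 0.543). Mbd3 was at 160, 153 and 118 CPM in controls and at 132, 134 and 134 CPM in KO. Its KO libraries lay within the control range, whose lowest value was control 3, and the log2 fold change was -0.10 (95% interval -0.41 to 0.20, edgeR adjusted p = 0.686). Zbtb33 was at 41.2, 44.8 and 35.7 CPM in controls and at 47.7, 46.3 and 46.9 CPM in KO. Every KO library was higher, by a log2 fold change of 0.21 (95% interval -0.06 to 0.49) that did not pass (edgeR adjusted p = 0.296). The summed level of the 4 binders was 330, 316 and 280 CPM in controls and 298, 299 and 294 CPM in KO. Control 3 was the highest control for Tet2, Tet3, Tdg, Mbd4 and Mbd1 and the lowest for Mbd3 and Zbtb33.

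**Figure D2:**
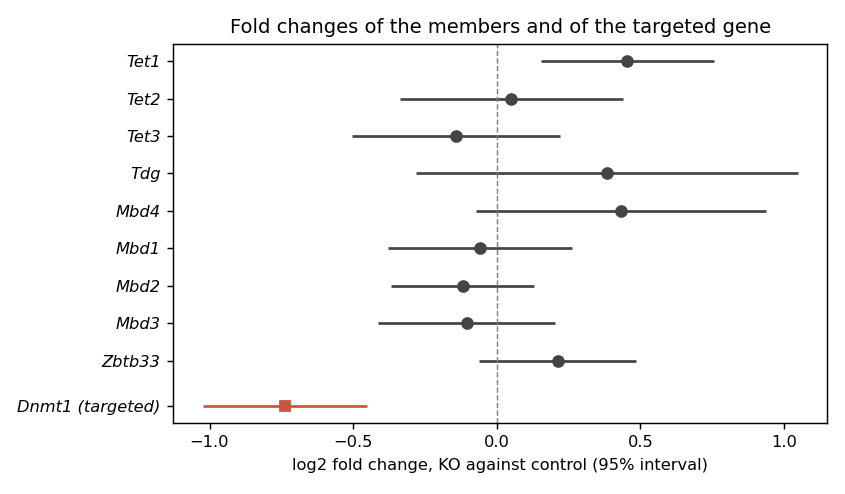
Log2 fold change of KO against control (horizontal axis) with its 95% interval for the 9 members (grey) and for the targeted gene Dnmt1 (red), from the edgeR fit. The interval of Tet1, 0.15 to 0.75, lies above 0, those of the other members cross it, and that of Dnmt1 lies below it.

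The intervals bound what these libraries could hide. The interval of Mbd2 reached down to a ratio of 0.775 and that of Mbd3 to 0.751, while that of Tdg reached up to 2.07. Exon lengths were not used, so levels are compared within a gene only. Over the 6 libraries, the genes most like Tet1 in log2 CPM among 13081 candidates were Kcnq5, a potassium channel subunit (Pearson r = 0.993), Sgo2a, a protector of centromeric cohesion (r = 0.992), and Ptprd, a receptor phosphatase (r = 0.989). With 6 points that share genotype and depth, 202 genes exceeded 0.9. Of the 3, Kcnq5 rose (log2 fold change 1.62, edgeR adjusted p = 0.0117), whereas Sgo2a (0.14) and Ptprd (0.31) did not pass.

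Of 5 pathway lists (TET supply, repair, NuRD, readers and corepressors), set beside a background of 6.36% higher and 8.23% lower genes, the one that supplies or steers TET activity had the most calls: 1 of 10 rose and 3 fell, of which 2 are described here, with a median log2 fold change of -0.15. TET enzymes use 2-oxoglutarate, which the isocitrate dehydrogenases make. Idh1, the cytosolic form, was at 211, 179 and 260 CPM in controls and at 98.7, 108 and 97.5 CPM in KO. Every KO library was far below every control, with a log2 fold change of -1.09 ± 0.15 (SE) and an edgeR adjusted p of 0.00244. Among the genes of these 5 lists, it was the one under 0.05 in all 12 alternative settings. Idh2, the mitochondrial form, was at 519, 508 and 417 CPM in controls and at 311, 355 and 341 CPM in KO, and fell by 0.52 on the log2 scale (edgeR adjusted p = 0.0453). Cxxc4, a CXXC protein that binds TET2 and lowers its level, was at 9.72, 13.5 and 8.43 CPM in controls and at 19.3, 16.4 and 20.9 CPM in KO. It rose by 0.84 on the log2 scale (edgeR adjusted p = 0.0323). The Idh1 and Idh2 values moved in the same direction as the tubule markers above, and the part of those cells in them was not tested.

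In base excision repair, 0 of 15 partners rose and 1 fell, with a median log2 fold change of 0.07, a share of calls near the background of 6.36% higher and 8.23% lower. Gadd45a, a stress-response gene linked to repair-based demethylation, was at 32.8, 29.5 and 20.7 CPM in controls and at 14.8, 16.0 and 19.3 CPM in KO. It fell by 0.73 on the log2 scale, with an edgeR adjusted p of 0.0456. Calls near the threshold were not stable to single libraries. Gadd45a and Idh2 lost theirs without control 1, control 2, KO 1, KO 2 or KO 3 (adjusted p = 0.1365, 0.1032, 0.1755, 0.147 and 0.0744 for Gadd45a, and 0.1085, 0.103, 0.208, 0.1186 and 0.1474 for Idh2). Cxxc4 lost its call without control 1, KO 1, KO 2 or KO 3 (0.1037, 0.1163, 0.0622 and 0.1223).

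None of 12 NuRD subunits, 9 tested methyl-DNA readers and 7 corepressors passed with edgeR, while 2, 2 and 1 of them were under 0.05 unadjusted, beside 5081 of 18132 genes. The smallest p among NuRD genes was that of Gatad2a, which links MBD2 or MBD3 to the remodelling module of the complex (log2 fold change -0.30, edgeR adjusted p = 0.126). Among readers it was Uhrf1, which brings DNMT1 to hemimethylated DNA, at 127, 134 and 136 CPM in controls and 163, 171 and 158 CPM in KO. All KO libraries of Uhrf1 were higher, with a log2 fold change of 0.31 and an edgeR adjusted p of 0.0806. Uhrf1 passed with DESeq2 (adjusted p = 0.0261), upper quartile scaling (0.0339) and voom (0.0135). Among corepressors it was Atf7ip, a partner of MBD1 and SETDB1 (log2 fold change 0.46, edgeR adjusted p = 0.132). Without control 3, edgeR called all 3 of these genes, with adjusted p-values of 0.0191 for Gatad2a, 0.0238 for Uhrf1 and 0.00657 for Atf7ip, and voom called Gatad2a (0.0176) and Atf7ip (0.00706) too. Over all genes, 27.4% of 18533 passed without control 3 and 27.8% of 18132 with voom. Mbd3l1 had no read in any library, and Mbd3l2 had at most 3 and was not tested. The medians were -0.03 for NuRD, 0.18 for the readers and 0.03 for the corepressors.

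DNA methylation was then read at the members themselves. Each value is a mean percent over those CpG positions where every one of the 6 libraries compared reached 10 calls. Each position weighs the same, whereas the edgeR test used the calls summed over these positions. A start window is 1000 bases on each side of the RefSeq start, and a gene body is the rest of the annotated gene. Genes without a start entry, Mbd1 and Mbd2 among them, had 1000 bases left out at each annotated end instead. The Tet3 start used, chr6:83441678 on the minus strand, lies inside the annotated gene, which extends to 83457208. The Tet3 body therefore includes positions upstream of that start, from 83451994 to 83456807. Those from 83456769 on averaged at most 3.25% in controls and 5.04% in KO. Bisulfite reads methyl and hydroxymethylcytosine alike, and positions next to each other can be the 2 strands of 1 CpG. RRBS libraries held 18424875 (KO 3) to 88765177 (control 2) calls, so KO 3 limits which positions enter.

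The start sequences of Mbd3 and Zbtb33 are shown because they contrast an autosomal start that was nearly unmethylated in all groups with an X-linked one that was not. Each is the 250 bases before the RefSeq start, 5′ to 3′ on the gene's strand in build GRCm38.p6, with CpG in capitals. That of Mbd3 lies at chr10:80399532-80399781 on the minus strand and that of Zbtb33 at chrX:38189543-38189792 on the plus strand.
Mbd3: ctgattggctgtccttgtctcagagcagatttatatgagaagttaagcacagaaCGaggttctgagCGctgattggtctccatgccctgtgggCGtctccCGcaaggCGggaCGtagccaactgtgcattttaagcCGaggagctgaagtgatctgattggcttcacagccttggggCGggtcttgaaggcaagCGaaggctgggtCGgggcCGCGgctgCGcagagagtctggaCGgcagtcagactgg
Zbtb33: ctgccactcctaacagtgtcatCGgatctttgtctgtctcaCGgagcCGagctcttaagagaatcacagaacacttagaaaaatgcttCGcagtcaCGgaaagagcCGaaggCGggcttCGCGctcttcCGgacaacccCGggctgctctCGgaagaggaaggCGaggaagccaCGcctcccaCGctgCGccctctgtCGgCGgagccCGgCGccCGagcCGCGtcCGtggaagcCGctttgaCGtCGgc
The Mbd3 stretch holds 14 CpG, a number that 29.57% of 27025 promoters of that length reach, and the Zbtb33 stretch 27, a number that 8.16% reach. The median promoter held 6. None of the covered Mbd3 positions lay inside its printed stretch, so its values come from the rest of the window. The same held for Zbtb33 in the comparison of KO with control, but not in that of adults with control. The densest member was Tet2 with 51 (0.07% hold as many), and those below Zbtb33 were Mbd4 with 22, Tdg with 19, Tet3 with 17 and Tet1 with 15. RefSeq entries matched 7 members.

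The 5 autosomal starts with data were almost unmethylated in both genotypes, and none was called. Across 9603 start windows 5.28% were lower and 0.0729% higher in KO, and 74.0% had under 5% methylation in controls. Tet1 had 14 positions at 1.08, 0.576 and 1.69% in controls and at 0.469, 0.286 and 1.45% in KO (edgeR adjusted p = 0.925). Tet2 averaged 2.10% in controls and 1.12% in KO over 4 positions, and Tet3 1.55 and 1.05% over 5. Mbd4 averaged 2.30 and 2.04% over 15 positions, but 1.69 and 1.87% weighted by calls. Mbd3 averaged 1.34% in controls and 0.417% in KO over 10. The groups of all 5 overlapped, and no difference was detected. With control means of at most 2.30%, a loss in KO had little room to show at any depth. For Mbd1 and Mbd2, which had no start entry, the window at the lower annotated end held 1.67 against 2.95% (5 positions) and 1.35 against 1.44% (17 positions).

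Zbtb33, on chromosome X, was the exception. Over 2 positions it had 28.5, 40.6 and 36.2% in controls and 27.2, 37.9 and 58.1% in KO. The groups overlapped (two-sided exact permutation p = 0.7, where 0.1 is the smallest that 3 against 3 allows), and the window had too few positions for the edgeR test. The median of 287 X-linked start windows was 34.1% in controls and 24.7% in KO, and 11.1% of them were called lower in KO.

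Gene bodies of the members lost methylation in KO as most bodies did. Of 7 with data, 5 were called lower and 0 higher, beside 77.7% and 0.228% of 14063 bodies, and 6 had every KO library below every control, beside 80.6%. The median body went from 74.4% to 53.1%. Tet3 was at 69.8, 69.8 and 71.2% in controls and 49.9, 49.1 and 51.2% in KO over 28 positions. All KO libraries of Tet3 were lower (difference -20.2 points, edgeR adjusted p = 3.46e-05). With 20 calls required, the Tet3 difference was -9.94 and did not pass (adjusted p = 0.0935). Tet2 was at 72.0, 66.7 and 65.4% in controls and 50.7, 51.3 and 51.7% in KO over 17 positions (difference -16.8, edgeR adjusted p = 4.71e-05). Mbd3 was at 93.8, 91.9 and 94.8% in controls and 66.7, 68.6 and 79.3% in KO over 8 positions, a difference of -22.0 (edgeR adjusted p = 2.45e-05). In Mbd3 and in Tdg the shallow library KO 3 kept the most methylation of the KO libraries. Tdg was at 92.2, 93.2 and 88.0% in controls and 72.8, 70.7 and 82.5% in KO over 3 positions (difference -15.8, edgeR adjusted p = 0.00136). Mbd1 was at 63.0, 60.7 and 52.0% in controls and 50.0, 45.0 and 40.8% in KO over 6 positions (difference -13.3, edgeR adjusted p = 0.0280). Its call was lost without control 2 (adjusted p = 0.0564), control 3 (0.0928) or KO 3 (0.0937).

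Tet1 and Mbd2 were the 2 bodies not called. Tet1 was at 39.0, 40.7 and 38.3% in controls and 33.8, 27.0 and 35.2% in KO over 45 positions. Every KO library was lower, with a difference of -7.34 (two-sided exact permutation p = 0.1, the smallest possible). Weighted by calls, Tet1 went from 44.3% to 38.4%, and the edgeR test of these calls did not pass (adjusted p = 0.173). Without control 3 that test passed (edgeR adjusted p = 0.0350, at a difference of -7.86). Mbd2 was at 55.8, 52.8 and 43.2% in controls and 47.7, 47.4 and 52.0% in KO over 17 positions. Its groups overlapped, with a difference of -1.57 and an edgeR adjusted p of 0.967. Mbd4 and Zbtb33 had no body position at this depth.

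**Figure D3:**
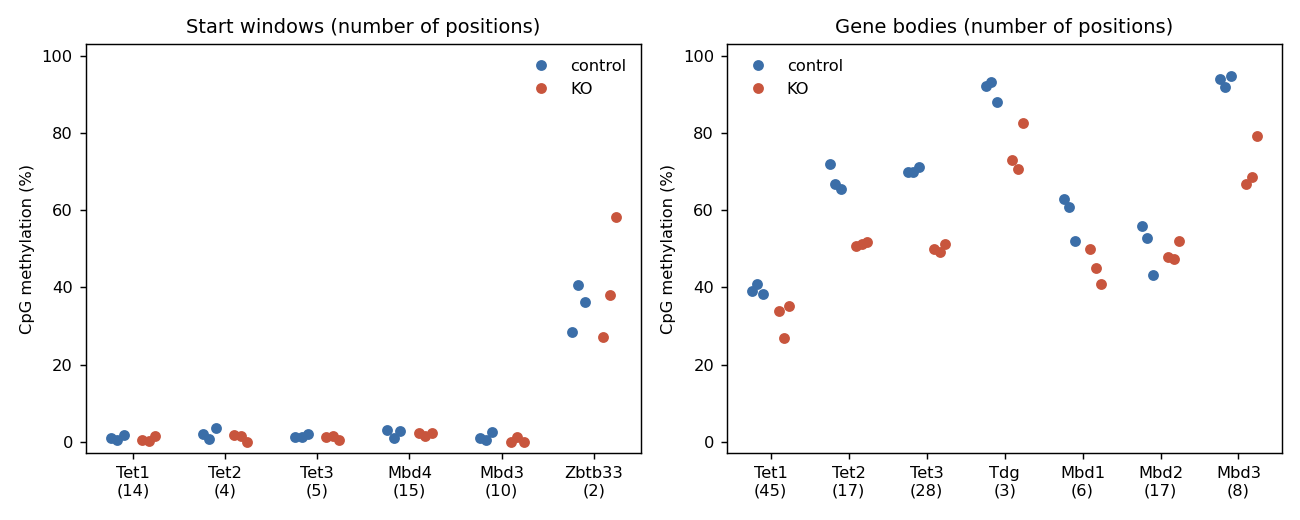
Mean CpG methylation in percent (vertical axis) of the members' start windows (left) and gene bodies (right), with 1 point per library, control in blue and KO in red, and the number of positions under each name. The 5 autosomal starts sit near 0 in both groups, and the bodies of 6 of 7 members are lower in every KO library.

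Body positions were also split by their adult level. Of 124 body positions with 10 calls in all 9 libraries, 57 had an adult mean of 80% or more, and 56 of these were lower in KO. Tet3 held 20 of them, going from 93.3% to 64.2%, and Tet1 held 17, going from 85.1% to 66.7%. Its other 28 positions averaged 11.6% in controls and 10.9% in KO. Among those 28, the positions from chr10:62885904 to 62886290 lie just past the start window around 62887324. Their control means ran from 0 to 10.1%. The Tet1 mean therefore combines positions of both kinds, and part of the low ones adjoin the start window. Tet2 went from 92.5% to 69.9% at its 10 high positions and from 33.0% to 24.6% at the other 7. The other 8 positions of Tet3 averaged 12.7% in controls and 14.8% in KO, and 1 of these was lower in KO. The other 2 of Mbd3 went from 85.2% to 74.5%, and the other 5 of Mbd1 from 53.4% to 41.4%. All 17 Mbd2 positions were under 80% in adults, and averaged 50.6% in controls and 49.0% in KO. The 80% limit was set after the data were seen, and no test was run between the classes. The share lower in KO was not computed for such positions outside the members, so 56 of 57 does not set the members apart. Of all 14063 bodies tested, 77.7% were called lower.

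**Figure D4:**
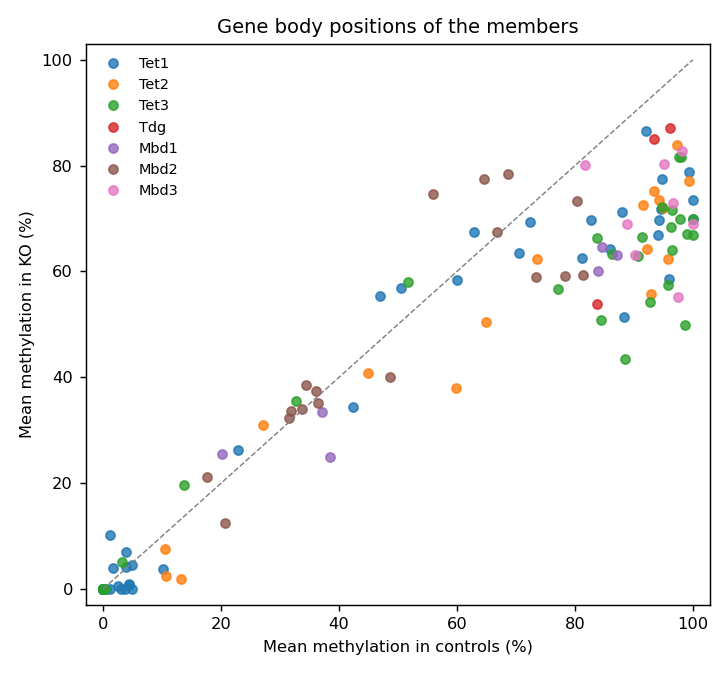
Mean methylation in percent of each gene body position of the members in the 3 controls (horizontal axis) and the 3 KO libraries (vertical axis), coloured by gene, with equality dashed. Positions near 100% in controls lie below the line, and those near 0 lie close to it.

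Against the newborn controls, adults differed in age, in genotype (wild type against f/f) and in animals, and these cannot be told apart. The start of Zbtb33 gave the largest difference of the 7 members with data. Over 16 positions it was at 39.3, 24.9 and 32.0% in controls and at 0, 0.298 and 0% in adults. Every adult was lower (difference -32.0, edgeR adjusted p = 3.84e-09, exact permutation p = 0.1). Of 12704 windows 24.0% were called lower and 3.05% higher, and 33.0% had every adult below every control. Of these positions 15 lie in the Zbtb33 stretch printed above, with 39.6, 24.0 and 31.8% in controls and 0% in each adult. The same held across the X chromosome: 297 of 346 X-linked windows (85.8%) were lower in adults, with medians of 34.9% and 0.581%, against 22.3% of the other windows. The share of RRBS calls on X was 2.35 to 2.37% in controls and 1.35 to 1.40% in adults, and that on Y 0.0194 to 0.0267% and 0.0954 to 0.124%. The labels give no sex, and sex and age cannot be told apart here.

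Tet1 was the one other start called lower in adults, from 0.915, 0.580 and 1.23% to 0, 0.233 and 0.147% over 24 positions (edgeR adjusted p = 0.00220). Every adult was lower, with a mean difference of -0.782 points at levels near 0. Over all 12704 start windows the median difference was -0.571 points and the lower quartile -1.16. The Tet1 difference thus lay within the common range of start windows. Tet2, Tet3, Tdg, Mbd3 and Mbd4 had 0.420 against 0.134%, 4.10 against 3.62%, 0.579 against 0.513%, 0.759 against 0.415% and 2.54 against 2.02%, and were not called. In gene bodies 13.4% of 16986 were called lower and 7.75% higher in adults, and 2 of the 7 members with data were called, Tet1 and Tet3. Tet1 had 51.3, 51.3 and 50.9% in controls and 52.7, 52.7 and 52.6% in adults with each position weighing the same. Weighted by calls, it went from 50.9% to 40.5% and was called lower (edgeR adjusted p = 0.00530), so the 2 measures disagree in direction. Tet3 averaged 63.5 and 63.4%, or 66.0 and 60.1% weighted by calls (edgeR adjusted p = 0.0284), with overlapping groups in the first measure. This call was lost with 20 calls required (adjusted p = 0.338) and without control 1 (0.0590), control 2 (0.0685), adult 1 (0.0688), adult 2 (0.1063) or adult 3 (0.0511). Mbd2 averaged 55.1% in controls and 47.5% in adults, with every adult lower (as in 19.5% of bodies), and was not called (edgeR adjusted p = 0.530). Mbd1 averaged 69.6% in controls and 62.8% in adults (edgeR adjusted p = 0.194), and the bodies of Tet2, Tdg and Mbd3 were not called either.

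**Figure D5:**
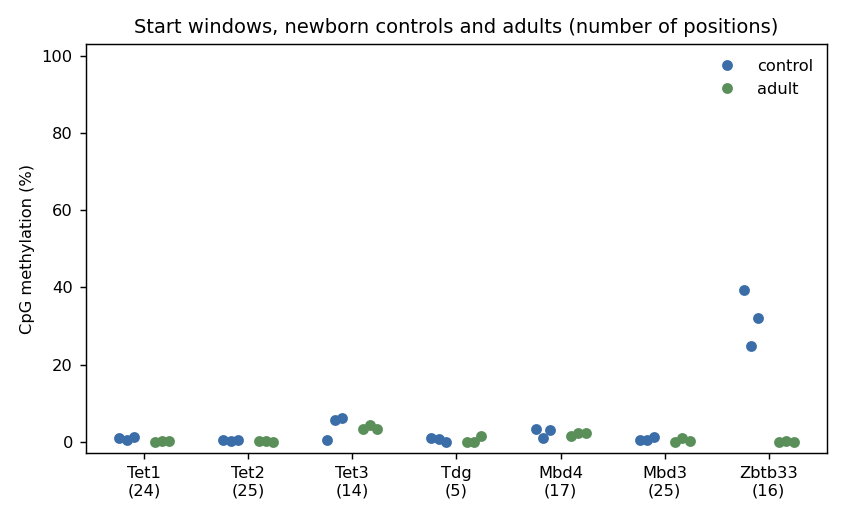
Mean CpG methylation in percent (vertical axis) of the start windows of 7 members in newborn controls (blue) and 6-week adults (green), 1 point per library, with the number of positions under each name. Zbtb33 is at 24.9 to 39.3% in controls and at 0 to 0.298% in adults, and the autosomal members stay near 0.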

How the data were processed

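The labels' protocols state that poly A RNA libraries were made from 200 ng of total RNA with a TruSeq kit, and RRBS libraries with a commercial kit. The submitters' processing notes name Trim Galore, Bismark, STAR 2.4.1d, HTSeq 0.6.1 and build GRCm38 (mm10). The deposited RNA files hold raw read counts per gene. The deposited RRBS files hold a methylation percent with methylated and unmethylated counts per position, as the authors computed them. Lines of unassigned reads were left out. Reads with more than 1 alignment made up 13.97 to 28.01% of the RNA lines' total.

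For the RNA comparison edgeR 4.0.16 (R 4.3.3) gave quasi-likelihood p-values (TMM, filterByExpr, Benjamini-Hochberg over 18132 genes, threshold 0.05). CPM uses TMM library sizes. RRBS calls summed over positions were tested with edgeR's methylation design over all windows with at least 3 positions; equal-weight means were compared with two-sided exact permutation tests. The positions fit the build: 99.65% of 271041 positions in promoter windows fell on a CpG of the RefSeq sequence. Of 46517 genes 46005 had a symbol. The scripts were tested on simulated data. Alternatives were DESeq2 1.42.0, limma 3.58.1 voom, other scalings, filters, call minimums of 5 and 20, windows of 500 bases, the replicate block and each library left out. All 9 members, Dnmt1, list genes under an adjusted p of 0.05, the gene of smallest p in lists with none, and the 3 genes most like Tet1 are named. The members and lists were chosen with earlier results of these data known. A list gene that passed is not reported here.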

Additional observations from a re-analysis of the deposited data

How the results depend on the processing

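Depth limits the RRBS results, since KO 3 had a median of 4 calls per position, and 3 libraries a group limit all results. Same-numbered libraries did not pair: the correlations of their RNA deviations were -0.236, -0.0653 and -0.124, and 0 of 3 controls correlated best with its own number. With the replicate number as a block, 0 members were called, and 0 list genes were called higher and 1 lower. Of 470 recomputed values, 382 kept direction and side of the threshold or, without a test, moved by less than the replicate SD (counts: by at most 1.5 times). For the others the cause was not tested.

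In RNA, voom called 2442 genes higher and 2595 lower. Members called higher were 1 with DESeq2, 1 with upper quartile scaling and 2 with voom. Of 18132 genes, 19.4%, 14.8% and 27.8% were called in either direction under these settings. List genes called higher were 2, 3 and 6 under the same settings, and those lower 2 with upper quartile scaling and 7 with voom. Tet1 passed with DESeq2 (0.461), upper quartile scaling (0.54) and voom (0.39), and Mbd4 with voom (0.64), while Mbd1 turned to 0.0246 with upper quartile scaling and 0.0248 with voom. Leaving out 1 library each gave 647 to 2512 genes higher, 701 to 2561 lower, 0 to 2 members higher, 0 to 8 list genes higher and 1 to 7 lower. Log2 fold changes ranged from 0.39 to 0.53 for Tet1, -0.072 to 0.26 for Tet2, 0.28 to 0.70 for Mbd4, 0.15 to 0.65 for Tdg, -0.27 to -0.013 for Tet3, -0.17 to -0.053 for Mbd2, -0.23 to -0.027 for Mbd3, 0.13 to 0.29 for Zbtb33 and -0.14 to 0.051 for Mbd1.

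For KO start windows, 232 of 3826 tested were lower at 20 calls, 837 of 13039 at 5 calls and 240 of 7676 with 500 bases, beside 507 of 9603, and 2 were higher at 20 calls. Leaving out 1 library gave 322 to 526 lower and 0 to 13 higher. Differences were 0.0038 points for the Tet2 start at 5 calls, 0.713 for Mbd4 with 500 bases (-0.899 to 0.115 leaving out 1 library) and -9.21 for Zbtb33 at 5 calls. In KO bodies, Tet1 passed at 20 calls (-10.4) and Tet3 did not (-9.94). Leaving out 1 library gave -8.96 to -4.83 for Tet1, -16.6 to -11.1 for Mbd1 and -5.25 to 1.03 for Mbd2. Mbd1 at 20 calls had too few positions for a test.

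For adults, 1660 of 8591 start windows were lower at 20 calls and 210 of 11181 higher with 500 bases (3053 and 388 of 12704), and leaving out 1 library gave 1727 to 2598 lower. Differences turned for the Tdg start at 5 calls (0.189), the Tet2 body at 5 calls (-0.240), the Tet3 body at 20 calls (1.48) and 5 calls (0.238), the Tdg body at 20 calls (2.05) and the Mbd2 body at 20 calls (0.968). Leaving out 1 library gave -2.30 to 0.576 for the Tet3 start, -0.579 to 0.200 for the Tdg start, -0.692 to 3.59 for the Tet2 body, -0.688 to 0.227 for the Tet3 body, -1.47 to 1.05 for the Tdg body and -4.71 to 0.518 for the Mbd3 body.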
